A study of Mus musculus with 6 samples.

Results

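Neutrophils of the tumor were compared with neutrophils of the spleen in mice bearing EMT6 tumors, which grow from a carcinoma line of the mouse mammary gland. The host mice were BALB/c controls labelled WT and mice labelled deficient in Cysltr1, a receptor for cysteinyl leukotrienes (labelled KO). CD45-positive cells had been enriched magnetically from both tissues, and each library held the cells of 1 pool of 3 mice. The 4 libraries used here are spleen labelled WT, tumor labelled WT, spleen labelled KO and tumor labelled KO, and neither ages nor tumor site are in the labels. Kept barcodes had 300 genes or more, 500 UMIs (unique molecular identifiers, counted transcripts) or more, and mitochondrial UMIs of no more than 10%. The neutrophils were selected on their measured counts. A barcode was taken as one with at least 1 UMI of Csf3r, the receptor of granulocyte colony-stimulating factor, with S100a8 and S100a9, the alarmins of neutrophil cytosol, making up at least 1% of its UMIs, with the secondary granule genes Ngp, Camp and Ltf under 0.5%, and with no UMI of C1qa, Cd3e or Cd79a. This rule found 3884 neutrophils among 32159 kept barcodes of the 4 libraries and 43810 of the whole series. They were 2129 cells in spleen and 349 in tumor in the pair labelled WT, and 1007 and 399 in the pair labelled KO.

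Neutrophils mature in the bone marrow, where they fill azurophil, then specific and then gelatinase granules in turn, and leave it for blood and spleen with the chemokine receptor Cxcr2 on their surface. They live briefly and carry many of their weapons as ready-made protein. In tumors they meet low oxygen, cytokines and dying cells. There they are known to secrete chemokines and cytokines of the interleukin 1 family, and in some settings to restrain T cells through arginase, prostaglandins or the checkpoint ligand PD-L1.

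Each tissue and genotype had 1 library, so a difference between tumor and spleen had no replicate within a pair and no test was made. The pair labelled WT was read first and the pair labelled KO served as a second reading that shares no library with it. Levels are UMIs summed over the neutrophils of a library and given as CPM (counts scaled to the library's summed UMIs). Ratios are tumor over spleen on the log2(CPM + 1) scale, folds are ratios of the CPM values, and their 95% intervals cover counting error only. Summed depth was 5901939, 692513, 2797109 and 787565 UMIs in spleen and tumor labelled WT and spleen and tumor labelled KO, so that 1 UMI was worth 0.169, 1.44, 0.358 and 1.27 CPM. The targeted gene went against its label. Cysltr1 stood at 3.39 CPM in spleen and 11.6 CPM in tumor neutrophils labelled WT, and at 160 and 16.5 CPM in those labelled KO, the highest value being in the spleen library labelled KO. Genotypes were not compared, and the pairs are named by their labels.

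The cells carried further neutrophil genes that the rule did not use. Trem1, an activating receptor of myeloid cells, was at 863 and 1132 CPM in spleen and tumor neutrophils labelled WT and at 983 and 1352 CPM in those labelled KO. In all other kept barcodes of the same libraries it was between 26.4 and 83.8 CPM. Il1r2, the decoy receptor for interleukin 1, was at 1087, 881, 1151 and 903 CPM, and between 49.6 and 129 CPM in the other barcodes. Of the 10 neutrophil markers that the rule did not use, all 10 were higher in the chosen cells than in the other barcodes of both tumor libraries and of the spleen library labelled KO, and 8 of 10 in the spleen library labelled WT. The exceptions there were Ly6g (492 against 547 CPM) and Lcn2 (3096 against 4864 CPM), and Ly6g had a UMI in 6.30% and 5.51% of tumor members. The values the rule used differed between tissues within the limits it set. The median share of S100a8 and S100a9 was 12.7% of UMIs in spleen and 5.73% in tumor labelled WT, and 11.6% and 4.86% labelled KO. Csf3r was at 1668 and 689 CPM and at 2153 and 729 CPM, and 75.6% and 71.7% of tumor members held exactly 1 Csf3r UMI, against 8.83% and 4.27% in spleen. The other conditions alone were met by 2196 barcodes in spleen and 964 in tumor labelled WT, and by 1023 and 1034 labelled KO. The Csf3r condition thus left out most such tumor barcodes and few in spleen. What the omitted barcodes are was not tested. Just inside the S100 threshold (1 to 2% of UMIs) lay 96 and 49 cells in spleen and tumor labelled WT and 58 and 59 labelled KO. Just outside it (0.5 to 1%) lay 39 and 53, and 23 and 38 cells that met the other conditions.

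Tumor neutrophils were shallower and carried more RNA of other cell types than spleen neutrophils. Median depth was 2255 UMIs in spleen and 1377 in tumor labelled WT, and 2416 and 1539 labelled KO, and the median mitochondrial share was 0.292% and 1.17%, and 0.165% and 0.550%. The 6 fibroblast markers (Col1a1, Col1a2, Col3a1, Dcn, Lum, Pdgfra) were all at 0 in spleen neutrophils and summed to 872 CPM in tumor neutrophils labelled WT and 385 CPM in those labelled KO. The 8 carcinoma markers, keratins among them, summed to 2.37 and 1.43 CPM in spleen and to 247 and 331 CPM in tumor neutrophils. The fibroblast and carcinoma markers together reached 52.5% and 38.7% of their level in all other tumor barcodes. The 10 macrophage markers summed to 125 and 127 CPM in spleen and to 1847 and 1139 CPM in tumor neutrophils, where the other tumor barcodes had 1864 and 1877 CPM. Of those 10, 1 was at 0 in each spleen library and 2 in each tumor library; C1qa was at 0 by the rule. Any pair of libraries shared 0 to 5 neutrophil barcodes. Members without a UMI of C1qb, C1qc, Trem2, Ms4a7, Mrc1, Fcgr1 or Adgre1 numbered 167 and 205 in tumor, and 2014 and 958 in spleen. Members without a UMI of another cell type's marker numbered 42 and 58 in tumor, and 769 and 427 in spleen. Ratios that leave out the rest thus rest on few tumor cells. No doublet caller was run.

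For this reason each ratio is given in 2 ways. Within limits, a gene had at least 50 UMIs and a mean of 20 CPM in each pair, and reached 20% of its CPM in the other barcodes of the library in which it was higher. Above the other barcodes, it reached at least 100% of that level, so that neutrophils held as much of it as the mixture around them. Spleen's other barcodes include neutrophils that the rule left out, so the stricter limit also removes genes of immature and mature neutrophils there. Of 4422 genes within limits, 1346 were at least 2-fold higher and 847 at least 2-fold lower in tumor in the pair labelled WT, or 30.4% and 19.2%. In the pair labelled KO 1146 (25.9%) were higher and 957 (21.6%) lower. Both pairs gave the same call for 1036 higher genes (23.4%) and 748 lower genes (16.9%), and no gene was called in opposite directions. The shared higher genes were 77.0% of those called in the pair labelled WT and 90.4% of those labelled KO, and the shared lower genes 88.3% and 78.2%. The 2 sets of log2 ratios had a Pearson r of 0.946 across the 4422 genes, which share libraries and are not independent.

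**Figure D1:**
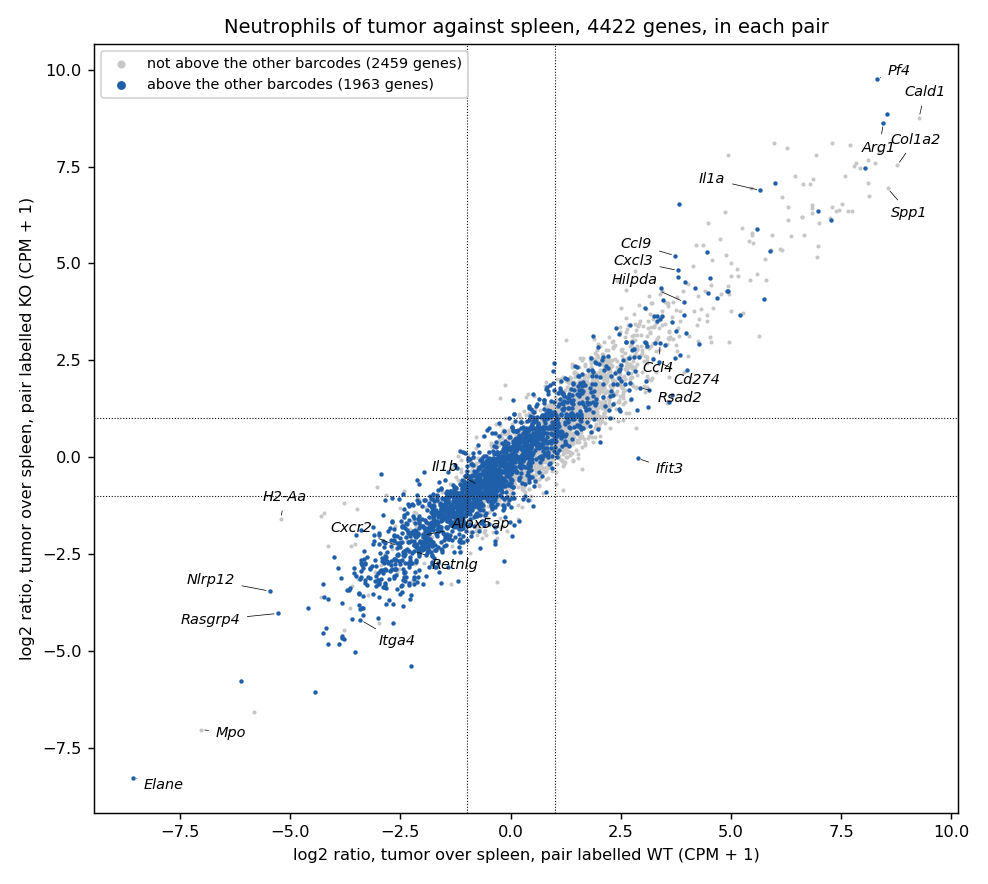
Each point is a gene: log2 ratio of tumor over spleen neutrophils in the pair labelled WT (x) and in the pair labelled KO (y), on the CPM + 1 scale, with dotted lines at 2-fold. Blue genes were above the other barcodes of the library in which they were higher and grey genes were not; no point lies past 2-fold in opposite directions, and the grey genes fill much of the upper right.

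The stricter limit sets a gene that was higher in tumor against the other tumor barcodes and a gene that was lower against the other spleen barcodes, so it acts differently on the 2 directions and the balance between them cannot be read from it. Of the 1963 genes that passed it, 280 (14.3%) were higher and 709 (36.1%) lower in tumor in the pair labelled WT, and 263 (13.4%) were higher and 773 (39.4%) lower in the pair labelled KO. In both pairs 212 genes (10.8%) were higher and 641 (32.7%) lower. Of the 1036 shared higher genes, 761 (73.5%) were lower in the tumor neutrophils labelled WT than in the other barcodes of that library. Of the 748 shared lower genes, 85 (11.4%) were lower in spleen neutrophils labelled WT than around them. With each cell thinned to 1000 UMIs, 552 genes were higher and 822 lower in the pair labelled WT. Median-ratio scaling moved the median log2 ratio of all genes in that pair from 0.24 to 0.01, with 1098 higher and 1024 lower. The part of RNA from other cells in these counts was not tested.

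The genes with the 15 highest ratios were largely known from other cell types. Of the 15, 11 were below the other barcodes of the tumor library labelled WT: Cald1, Col1a2, Spp1, Ccn1, Il1rl1, Col12a1, Tm4sf1, Ogn, Cp, Hspb1 and Sparc. Collagens, Sparc and Ogn are matrix genes and Cald1 binds actin in contractile cells. With an estimate of free RNA subtracted, Cald1 and Sparc were lower in tumor in the pair labelled WT, with log2 ratios of -0.24 and -0.45. That subtraction may remove too much. Col1a2 was at 0 in both spleen libraries and at 436 and 184 CPM in tumor neutrophils, at least 858-fold and at least 172-fold higher, and the other tumor barcodes had 722 and 553 CPM. Its UMIs occurred in 40.1% of tumor neutrophils labelled WT and 19.5% of those labelled KO. The other 4 were Ccl7, Arg1, Pf4 and Ccl8, which tumor macrophages are known to make. Arg1, the arginine-consuming enzyme, was at 0.169 CPM (1 UMI) in spleen and 410 CPM in tumor neutrophils labelled WT, and at 0 and 391 CPM in those labelled KO. The other tumor barcodes had 199 and 277 CPM of it. Tumor neutrophils were thus above the mixture around them in Arg1, while the macrophage receptors Mrc1 (53.4 and 124 CPM) and Fcgr1 (189 and 76.2 CPM) were present in the same summed counts. Whether single cells held these genes together was not tested. With the members that held a UMI of C1qb, C1qc, Trem2, Ms4a7, Mrc1, Fcgr1 or Adgre1 left out, the log2 ratio of Arg1 went from 8.46 to 6.29 and from 8.62 to 6.45. That of Pf4 went from 8.31 to 6.60 and from 9.76 to 8.17, and that of Apoe from 3.74 to 2.34 and from 2.57 to 1.96. These macrophage-type genes are given as levels only.

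Chemokines were the list with the largest share of higher genes. Of 10 chemokines above the other barcodes 8 (80%, against 10.8% of all genes) were at least 2-fold higher in tumor neutrophils in both pairs. None was lower. The median log2 ratio was 3.57 and 3.65, against -0.53 and -0.65 over all 1963 genes. The 8 were Cxcl3, Ccl3, Ccl4, Ccl9, Cxcl10, Ccl2 and the Ccl7 and Pf4 named above with the macrophage-type genes. Without members that held a macrophage UMI all 8 stayed at least 2-fold higher in both pairs, but some log2 ratios were smaller. That of Ccl2 went from 3.41 to 1.94 and from 4.36 to 2.30, that of Ccl7 from 8.53 to 6.92 and from 8.85 to 7.30, and that of Cxcl10 in the pair labelled WT from 4.01 to 2.93. Those of Cxcl3 went from 3.80 to 3.70 and from 4.82 to 4.76. Cxcl3, a ligand of Cxcr2 that draws neutrophils, was at 124 CPM in spleen and 1737 CPM in tumor neutrophils labelled WT, and at 125 and 3568 CPM in those labelled KO. Both tumor libraries lay far above both spleen libraries and above the other tumor barcodes, which had 174 and 347 CPM. The folds were 14.0 (12.7 to 15.4) and 28.4 (25.4 to 31.9). Ccl4, which attracts monocytes and T cells, was at 196 and 2071 CPM and at 616 and 4723 CPM, or 10.6-fold (9.78 to 11.4) and 7.66-fold (7.24 to 8.12) higher. Its relative Ccl3 was at 283 and 2124 CPM and at 560 and 3388 CPM. Ccl9 was at 10.8 and 156 CPM and at 5.72 and 246 CPM. Cxcl10, an interferon-induced ligand of the T cell receptor Cxcr3, was at 11.7 and 204 CPM and at 67.2 and 324 CPM. Every one of these was higher in both tumor libraries than in either spleen library.

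Cxcl2, the other main Cxcr2 ligand of neutrophils, was already high in spleen. It was at 14810 and 20156 CPM in spleen and tumor labelled WT and at 17242 and 29613 CPM labelled KO, or 1.36-fold (1.34 to 1.39) and 1.72-fold (1.69 to 1.74) higher in tumor, under the 2-fold limit in both pairs. Ccl6 differed by 1.06-fold (0.998 to 1.13) and 2.18-fold (2.07 to 2.31). Cxcl1 was at 31.0 and 856 CPM and at 19.3 and 997 CPM, but its level in tumor neutrophils was below that in the other tumor barcodes, 1061 and 1389 CPM. Ligands of the same receptor thus differed in the size of their ratio.

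Of the 8 genes, 5 had a promoter window in the RefSeq table (GRCm38.p6), and 2 of those windows, Cxcl3 and Ccl9, held a match to the NF-kB motif (GGG, any 2 bases, TTTCC) on either strand. Over all 32851 windows of 300 bases, 250 before to 50 after a start site, 1.63% held this motif, as did 5.36% of the windows of genes higher in both pairs and 2.02% of those of genes lower in both, each above the other barcodes. The 250 bases before the start sites of Cxcl3 and Ccl9 are shown because their windows held a match, with the motif in capitals. The windows of Pf4, Cxcl10 and Ccl3 held no match and are not shown. Cxcl3 lies on the plus strand at chr5:90785851-90786100 and Ccl9 on the minus strand at chr11:83578637-83578886; the matches begin 73 and 35 bases before the start sites. Of the same 5 windows 3 (60%, against 43.8% of all windows) held the hypoxia core described below, that of Cxcl3 among them. It is not put in capitals here. A match is a description of the letters only.
Cxcl3: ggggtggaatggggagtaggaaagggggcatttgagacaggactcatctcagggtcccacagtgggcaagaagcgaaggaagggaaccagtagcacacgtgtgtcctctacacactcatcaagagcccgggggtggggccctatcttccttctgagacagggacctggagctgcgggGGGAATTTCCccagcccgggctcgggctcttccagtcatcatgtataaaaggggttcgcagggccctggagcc
Ccl9: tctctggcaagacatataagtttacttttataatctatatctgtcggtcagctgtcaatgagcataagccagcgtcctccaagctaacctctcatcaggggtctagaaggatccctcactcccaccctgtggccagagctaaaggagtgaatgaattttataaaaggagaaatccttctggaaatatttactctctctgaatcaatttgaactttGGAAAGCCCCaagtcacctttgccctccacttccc

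Among interleukin 1 genes the ligands diverged. Il1a, the alarmin form, was at 4.91 CPM in spleen and 299 CPM in tumor neutrophils labelled WT, and at 3.93 and 582 CPM in those labelled KO. Other tumor barcodes had 43.0 and 85.3 CPM, so both tumor groups of neutrophils stood above them. The folds were 60.8 (41.1 to 93.1) and 148 (81.9 to 298). Il1b, the secreted form cleaved by the inflammasome, was at 7223 and 4355 CPM and at 11833 and 7194 CPM. It was lower in tumor than in spleen in both pairs, by 1.66-fold (1.60 to 1.72) and 1.64-fold (1.60 to 1.69), which did not reach 2-fold. Il1rn, the receptor antagonist, was at 194 and 835 CPM and at 259 and 1552 CPM. Nlrp3, the inflammasome sensor, was at 205 and 612 CPM and at 310 and 1169 CPM, or 2.99-fold (2.67 to 3.35) and 3.77-fold (3.43 to 4.14) higher in tumor. Nlrp12, a relative described as a brake on inflammation, went the other way. It was at 107 CPM in both spleen libraries and at 1.44 CPM (1 UMI) and 8.89 CPM (7 UMIs) in tumor, or 74.2-fold (13.3 to 2934) and 12.1-fold (5.78 to 30.3) lower. Gsdmd, the pore-forming effector of pyroptosis, was 2.03-fold (1.39 to 3.08) and 2.36-fold (1.65 to 3.48) lower. Of this list, 3 of 10 genes above the other barcodes were higher (30%, against 10.8% of all genes) and 2 lower (20%, against 32.7%) in both pairs. The medians were -0.32 and -0.38. Within limits 3 of 12 were higher in both pairs (25%, near the 23.4% of all genes) and 2 lower (16.7%, near 16.9%).

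**Figure D2:**
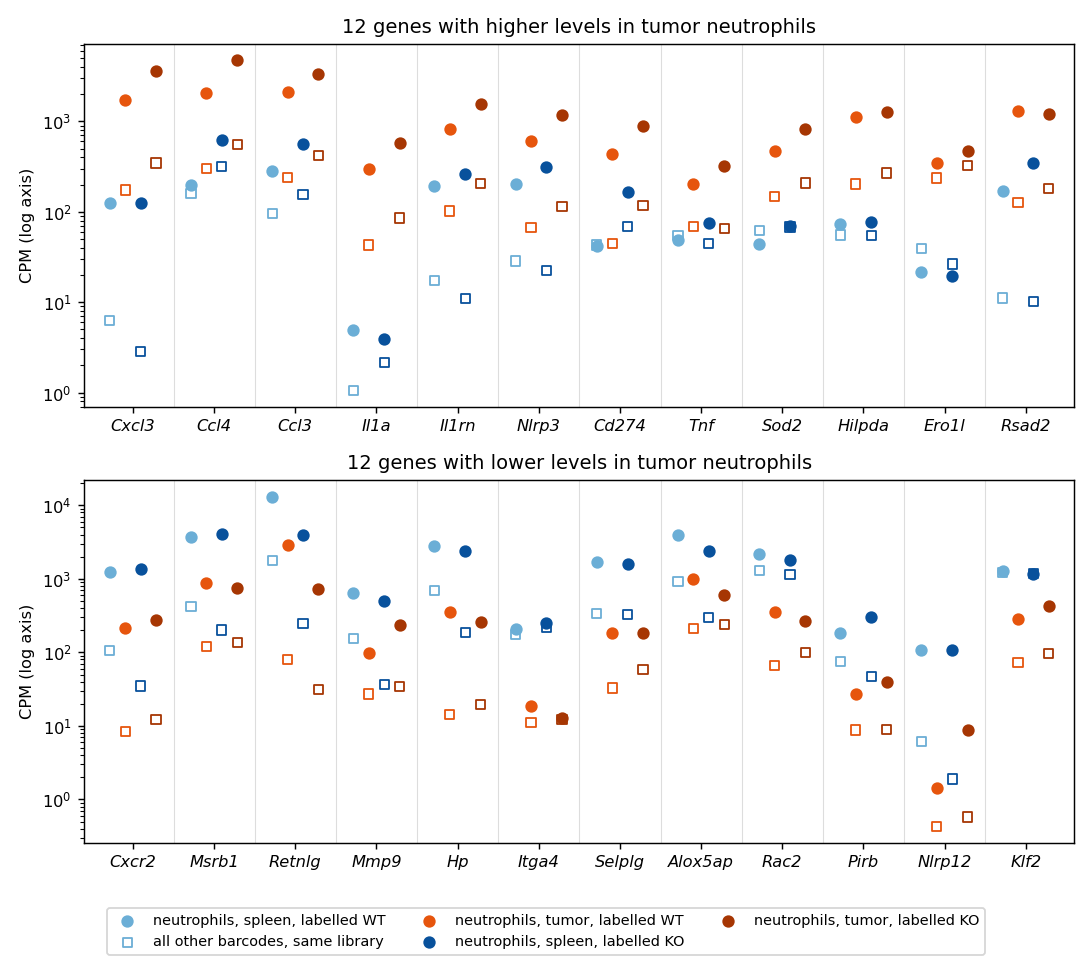
CPM on a log axis of 12 genes higher (top) and 12 genes lower (bottom) in tumor neutrophils, with filled points for neutrophils of the 4 libraries and open squares for all other barcodes of the same library. In the top panel both tumor points lie above both spleen points for each gene, and in the bottom panel both lie below.

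Targets of TNF and NF-kB, the pathway that drives many inflammatory genes, had 7 of 23 genes above the other barcodes higher in both pairs. That is 30.4%, against 10.8% of all genes. Lower in both were 2 (8.70%, against 32.7%), and the medians were 0.85 and 0.78. Within limits 7 of 28 were higher in both pairs (25%, near the 23.4% of all genes) and 2 lower (7.14%, against 16.9%). Sod2, the mitochondrial superoxide dismutase, was at 44.1 and 472 CPM and at 69.7 and 832 CPM, or 10.7-fold (9.08 to 12.7) and 11.9-fold (10.2 to 14.1) higher. Tnf itself was at 48.8 and 201 CPM and at 74.4 and 317 CPM. Icam1, an adhesion molecule, was at 27.6 and 78.0 CPM and at 37.5 and 196 CPM. Both tumor libraries exceeded both spleen libraries for these genes and for Cflar and Nfkbie. The NF-kB inhibitors Nfkbia (1.12-fold and 1.64-fold) and Tnfaip3 (1.75-fold and 1.73-fold) were higher by less than 2-fold. Zfp36, which speeds the decay of cytokine messages including Tnf, was at 5118 and 979 CPM and at 5050 and 1427 CPM, or 5.23-fold (4.84 to 5.65) and 3.54-fold (3.33 to 3.76) lower in tumor.

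Genes of the suppression and checkpoint list, which also holds myeloid receptors such as Clec4d and Cd14, moved in both directions. Of 19 above the other barcodes 5 were higher in both pairs (26.3%, against 10.8% of all genes). Lower in both were 4 (21.1%), a smaller share than the 32.7% of all genes. Within limits 7 of 22 were higher (31.8%, against 23.4% of all genes) and 4 lower (18.2%, near 16.9%). Cd274, which encodes PD-L1, was at 41.3 CPM in spleen and 436 CPM in tumor neutrophils labelled WT, and at 164 and 898 CPM in those labelled KO. Both tumor libraries were above both spleen libraries, and the other tumor barcodes had 44.8 and 117 CPM. The folds were 10.5 (8.88 to 12.5) and 5.48 (4.87 to 6.18). Tnfrsf23, a decoy receptor for TRAIL, was at 39.0 and 227 CPM and at 47.9 and 254 CPM. Clec4d, a lectin receptor, was at 271 and 801 CPM and at 445 and 1185 CPM, and Cd14, the endotoxin co-receptor, at 818 and 1908 CPM and at 935 and 2790 CPM. Ptgs2, the inducible prostaglandin synthase, was at 180 and 669 CPM and at 315 and 682 CPM, yet below the other tumor barcodes, 796 and 859 CPM. Inhibitory receptors were among the lower genes. Pirb, a receptor for class I molecules, was at 183 and 27.4 CPM and at 299 and 39.4 CPM. Vsir, which encodes the checkpoint protein VISTA, was at 313 and 31.8 CPM and at 247 and 40.6 CPM, or 9.85-fold (6.49 to 15.8) and 6.07-fold (4.26 to 8.95) lower. Cd84 was at 637 and 130 CPM and at 640 and 94.0 CPM.

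Of 21 genes of low oxygen and glycolysis above the other barcodes, 9 (42.9%, against 10.8% of all genes) were higher in both pairs. Lower in both were 3 (14.3%, against 32.7%), and the medians were 0.70 and 1.11. HIF, the transcription factor stabilized at low oxygen, is known to drive many genes of this list. Hilpda, which blocks lipid breakdown on droplets, was at 72.5 CPM in spleen and 1125 CPM in tumor neutrophils labelled WT, and at 77.9 and 1268 CPM in those labelled KO. Both tumor libraries were above both spleen libraries and above the other tumor barcodes, at 203 and 269 CPM. The folds were 15.5 (13.8 to 17.5) and 16.3 (14.0 to 18.9). Ero1l, the oxidase of protein folding, was at 21.5 and 349 CPM and at 19.7 and 471 CPM, or 16.2-fold (13 to 20.3) and 24.0-fold (18.0 to 32.4) higher. Hk2, the first enzyme of glycolysis, was at 12.9 and 86.6 CPM and at 15 and 71.1 CPM. Egln3, the oxygen sensor that marks HIF for decay, was at 23 and 93.9 CPM and at 14.7 and 110 CPM. Bnip3, a mitophagy receptor, was at 115 and 355 CPM and at 88.3 and 397 CPM. All 5 were higher in both tumor libraries. Hif1a itself differed by 1.31-fold (1.12 to 1.54) and 1.13-fold (0.964 to 1.33). The glucose transporter Slc2a1 was 1.56-fold (1.33 to 1.83) and 2.82-fold (2.43 to 3.27) higher, past 2-fold in the pair labelled KO alone. The glycolytic enzymes Ldha and Pgk1 were at least 2-fold higher in both pairs but below the other barcodes of both tumor libraries. Among the lower genes of the list, Pygl, which releases glucose from glycogen, was at 721 and 78.0 CPM and at 553 and 73.6 CPM, or 9.25-fold (7.08 to 12.3) and 7.51-fold (5.78 to 9.94) lower in tumor. Pfkfb4, a regulator of glycolytic flux, was at 205 and 27.4 CPM and at 176 and 17.8 CPM.

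All 9 higher genes of this list had a RefSeq promoter window, and the windows of all 9 held the core of the hypoxia response element, ACGTG or GCGTG on either strand. The same core occurred in 43.8% of all 32851 windows, in 62.9% of the windows of the 169 matched genes among the 212 higher in both pairs, and in 54.7% of those of the 513 matched genes among the 641 lower. A CACGTG palindrome counts on both strands, and the core overlaps the E-box of other factors. Shown are the 250 bases before the start site of Ero1l (chr14:45318573-45318822) and Bnip3 (chr7:138909507-138909756), both on the minus strand of GRCm38.p6, with the core in capitals, since they hold 3 and 5 matches. No NF-kB motif was found in the windows of these 9 genes, which says nothing of the factor.
Ero1l: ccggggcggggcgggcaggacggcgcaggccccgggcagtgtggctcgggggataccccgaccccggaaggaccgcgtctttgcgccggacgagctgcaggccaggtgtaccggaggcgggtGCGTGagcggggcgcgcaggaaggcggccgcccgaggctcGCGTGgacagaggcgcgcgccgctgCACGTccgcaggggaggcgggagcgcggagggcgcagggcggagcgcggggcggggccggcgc
Bnip3: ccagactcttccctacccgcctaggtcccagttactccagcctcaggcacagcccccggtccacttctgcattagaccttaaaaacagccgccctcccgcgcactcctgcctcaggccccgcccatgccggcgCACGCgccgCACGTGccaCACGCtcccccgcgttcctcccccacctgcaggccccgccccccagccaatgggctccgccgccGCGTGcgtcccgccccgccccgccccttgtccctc

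Interferon genes were higher in tumor neutrophils in part. Of 29 type I interferon genes above the other barcodes, 6 were higher (20.7%, against 10.8% of all genes) and 2 lower (6.90%, against 32.7%) in both pairs. The medians were 0.59 and 0.05. Within limits 7 of 31 were higher in both pairs (22.6%, near the 23.4% of all genes) and 2 lower (6.45%, against 16.9%). Rsad2, which makes the antiviral viperin, was at 171 and 1305 CPM and at 344 and 1196 CPM. Ifit1 was at 99.6 and 472 CPM and at 205 and 481 CPM. Both tumor libraries exceeded both spleen libraries in these genes. Ifit3 was at 14.4 and 113 CPM and at 74.0 and 72.4 CPM, higher by 7.82-fold (5.68 to 10.8) in the pair labelled WT and without a detectable difference, 0.978-fold (0.716 to 1.32), in the pair labelled KO. Of 16 genes of interferon gamma GTPases and class I processing 7 were higher (43.8%, against 10.8%) and none lower in both pairs, with medians of 1.26 and 0.77. Gbp5, a GTPase of pathogen defence, was at 5.08 and 52.0 CPM and at 55.4 and 138 CPM, and Ifi47 at 32.0 and 218 CPM and at 164 and 465 CPM. Socs1, the feedback inhibitor of interferon receptors, was at 18.8 and 70.8 CPM and at 34.3 and 151 CPM. Ifngr1, a chain of the interferon gamma receptor, was 3.55-fold (2.75 to 4.68) and 3.47-fold (2.68 to 4.57) lower in tumor. Il17ra, a chain of the interleukin 17 receptor, was at 244 and 41.9 CPM and at 296 and 45.7 CPM. Of 18 cytokine receptor and SOCS genes 1 was higher and 4 lower in both pairs, and 22.2% lower is less than the 32.7% over all genes above the other barcodes.

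Survival genes differed in both directions. Bcl2l1, which encodes the anti-apoptotic BCL-XL, was at 40.2 and 137 CPM and at 28.2 and 137 CPM, or 3.42-fold (2.66 to 4.35) and 4.86-fold (3.60 to 6.57) higher in tumor. Mcl1, on which neutrophils are known to depend, was at 2500 and 1446 CPM and at 2937 and 1821 CPM, lower by less than 2-fold. The pro-apoptotic Pmaip1 was at 148 and 30.3 CPM and at 190 and 15.2 CPM. Cdkn1a, the p21 cell cycle inhibitor, was at 104 and 552 CPM and at 85.1 and 870 CPM. In this list 4 of 15 genes above the other barcodes were higher in both pairs (26.7%, against 10.8% of all genes), the pro-apoptotic Bcl2l11 among them. Lower in both were 2 (13.3%, against 32.7%). Within limits 6 of 21 were higher in both pairs (28.6%, against 23.4% of all genes) and 2 lower (9.52%, against 16.9%). Lysosomal genes had 5 of 14 higher (35.7%, against 10.8%) and 1 lower (7.14%, against 32.7%). Cstb, an inhibitor of cathepsins, was at 200 and 1993 CPM and at 186 and 2137 CPM, or 9.98-fold (9.23 to 10.8) and 11.5-fold (10.4 to 12.7) higher.

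**Figure D3:**
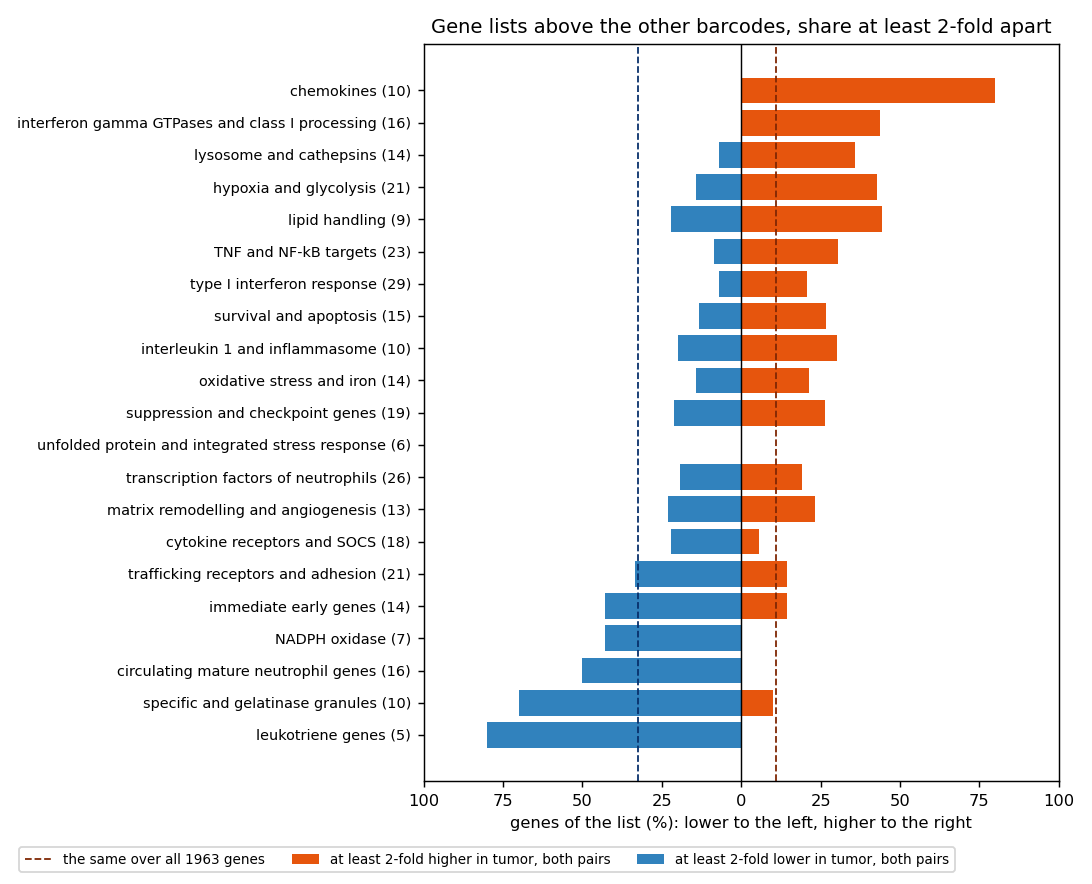
Share of each gene list with at least 5 such genes that was at least 2-fold higher (orange, right) or lower (blue, left) in tumor neutrophils in both pairs, among genes above the other barcodes; their number stands beside each list. Dashed lines give the same shares over all 1963 genes, 10.8% higher and 32.7% lower; chemokines reach 80.0% on the right and leukotriene genes 80.0% on the left.

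Genes of circulating neutrophils were lower in tumor. Of 16 such genes above the other barcodes 8 (50%, against 32.7% of all genes) were lower and none higher in both pairs, with medians of -1.47 and -1.10. Cxcr2, the receptor for Cxcl2 and Cxcl3, was at 1257 CPM in spleen and 215 CPM in tumor neutrophils labelled WT, and at 1357 and 276 CPM in those labelled KO. Both tumor libraries lay below both spleen libraries, by 5.84-fold (4.97 to 6.92) and 4.92-fold (4.29 to 5.67). Retnlg, a resistin-like secreted protein, was at 13122 and 2858 CPM and at 3918 and 733 CPM, lower in tumor within each pair by 4.59-fold (4.39 to 4.80) and 5.35-fold (4.92 to 5.82), although the spleen library labelled KO lay close to the tumor library labelled WT. Msrb1, a methionine sulfoxide reductase, was at 3654 and 871 CPM and at 4018 and 753 CPM. Ly6g, the marker by which mouse neutrophils are sorted, was at 492 and 41.9 CPM and at 188 and 39.4 CPM, but below the other spleen barcodes labelled WT, which include other neutrophils. Csf2rb, the receptor chain for GM-CSF, did not reach 2-fold and lay at 309 and 283 CPM and at 279 and 286 CPM.

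Some adhesion molecules were lower as well. Selplg, the ligand of selectins, was at 1691 and 185 CPM and at 1591 and 182 CPM, or 9.15-fold (7.68 to 11) and 8.76-fold (7.42 to 10.4) lower in tumor. Itgal, a chain of the integrin LFA-1, was at 225 and 21.7 CPM and at 272 and 43.2 CPM. Itga4, a chain of VLA-4, was at 209 and 18.8 CPM and at 250 and 12.7 CPM. Tumor neutrophils were the lower ones in each pair. Across the 21 trafficking genes above the other barcodes 7 were lower, a share of 33.3% and thus near the 32.7% over all genes, and 3 were higher, Icam1, Cd9 and C3ar1. Within limits 9 of 27 were lower (33.3%, above the 16.9% of all genes) and 5 higher (18.5%, against 23.4%). Cxcr4, the marrow-homing receptor, was lower by 1.26-fold (0.932 to 1.75) and 2.03-fold (1.57 to 2.67).

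Granule genes were lower. Of 10 genes of specific and gelatinase granules above the other barcodes 7 were lower in both pairs (70%, against 32.7% of all genes). Higher in both was 1 (10%, against 10.8%), and the medians were -2.42 and -2.20. Hp, haptoglobin, was at 2812 and 354 CPM and at 2412 and 256 CPM. Pglyrp1, a peptidoglycan-binding protein, was at 2530 and 316 CPM and at 1771 and 184 CPM, or 8-fold (7 to 9.18) and 9.62-fold (8.15 to 11.4) lower. Mmp8, neutrophil collagenase, was at 831 and 155 CPM and at 255 and 47.0 CPM. Both pairs gave the same order for these 3 genes. Mmp9, gelatinase B, was at 644 and 98.2 CPM and at 497 and 239 CPM, or 6.56-fold (5.16 to 8.46) and 2.08-fold (1.79 to 2.44) lower. In the pair labelled KO its log2 ratio went from -1.05 to -2.17 without members over 4000 UMIs. Lcn2, lipocalin, was 2.29-fold (2.14 to 2.45) lower in one pair and level in the other, 0.985-fold (0.921 to 1.05). The azurophil genes Elane, Mpo, Prtn3 and Ctsg, made only in early precursors, were among the lowest ratios but rested on few spleen cells. Elane was at 376 and 308 CPM in spleen and at 0 in both tumor libraries, at least 86.8-fold and at least 80.8-fold lower. Its UMIs occurred in 2.40% of spleen members labelled WT and 0.397% of those labelled KO, and without members over 4000 UMIs its log2 ratio went from -8.56 to -3.51 and from -8.27 to -0.96.

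The other lowest ratios were Nlrp12, Rasgrp4, H2-Aa, Syt11, Acap1, Tbc1d10c, Rgs3, Pik3cd, Bmx, H2-Eb1 and Prr5l. Rasgrp4 activates Ras in myeloid cells and was at 150 and 2.89 CPM and at 181 and 10.2 CPM, or 52.0-fold (14.4 to 430) and 17.8-fold (8.99 to 41.6) lower. Pik3cd, the leukocyte PI3-kinase, was at 155 and 7.22 CPM and at 199 and 7.62 CPM. Bmx, a Tec-family kinase, was at 72.2 and 2.89 CPM and at 57.2 and 3.81 CPM, and Prr5l, a partner of the kinase complex mTORC2, at 176 and 8.66 CPM and at 234 and 10.2 CPM. These 4 signalling genes had 2 to 8 UMIs in each tumor library. The class II genes H2-Aa and H2-Eb1, of antigen-presenting cells, were below the other spleen barcodes, and their ratios in the pair labelled KO changed sign without members over 4000 UMIs, from -1.59 to 0.10 and from -1.43 to 0.41.

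Of 7 genes of the NADPH oxidase, the complex that makes superoxide, 3 were lower and none higher in both pairs, or 42.9% against 32.7% over all genes. Rac2, its small GTPase, was at 2163 and 349 CPM and at 1828 and 268 CPM, or 6.19-fold (5.45 to 7.06) and 6.82-fold (5.94 to 7.87) lower. Ncf1 was at 222 and 46.2 CPM and at 169 and 72.4 CPM, Ncf4 at 833 and 245 CPM and at 782 and 279 CPM, whereas Cyba did not reach 2-fold. Of 5 leukotriene genes above the other barcodes 4 were lower in both pairs (80%, against 32.7% of all genes). Alox5ap, which presents arachidonic acid to 5-lipoxygenase, was at 3909 and 989 CPM and at 2403 and 596 CPM, or 3.95-fold (3.66 to 4.27) and 4.04-fold (3.67 to 4.44) lower. Alox5, the lipoxygenase itself, was at 110 and 13 CPM (9 UMIs) and at 90.5 and 21.6 CPM (17 UMIs). Ltb4r1, the receptor for leukotriene B4, was 3.99-fold (2.79 to 5.90) lower in the pair labelled WT and 1.30-fold (1.04 to 1.65) lower in the pair labelled KO.

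Of 14 immediate early genes above the other barcodes 6 were lower (42.9%, against 32.7% of all genes) and 2 higher in both pairs. Their medians, -0.20 and -0.46, lay above those of all genes, -0.53 and -0.65. Within limits the medians were 0.01 and -0.70, below those of all genes, 0.24 and 0.05. Dusp1, a phosphatase of MAP kinases, was at 6465 and 822 CPM and at 5705 and 1468 CPM, or 7.87-fold (7.24 to 8.56) and 3.89-fold (3.66 to 4.13) lower. Fos was at 2296 and 468 CPM and at 1998 and 519 CPM. Klf2, a factor of quiescent leukocytes, was at 1271 and 284 CPM and at 1162 and 425 CPM, with other spleen barcodes at a like level. Spi1, which encodes PU.1, was at 1234 and 240 CPM and at 1251 and 342 CPM, Cebpd at 890 and 114 CPM and at 931 and 166 CPM, and Nfe2 at 164 and 14.4 CPM and at 130 and 14.0 CPM. Cebpb, the factor of emergency granulopoiesis, was lower by less than 2-fold, 1.52-fold (1.45 to 1.58) and 1.33-fold (1.28 to 1.39). Of 26 transcription factors above the other barcodes 5 were higher and 5 lower in both pairs, or 19.2% each, against 10.8% and 32.7% of all genes. Within limits 6 of 34 were higher (17.6%, against 23.4%) and 7 lower (20.6%, against 16.9%). The order against all genes thus depended on the limit.

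Ribosomal and chaperone genes were higher in tumor but below the mixture around the cells. Of 63 cytosolic ribosomal protein genes within limits 44 were at least 2-fold higher and none lower in both pairs, with medians of 1.30 and 1.29. Heat shock chaperones had 10 of 13 higher and oxidative phosphorylation 12 of 44, which at 27.3% is near the 23.4% over all genes within limits. With free RNA subtracted, the ribosomal medians turned to -6.44 and -1.32 and the chaperone median of the pair labelled WT to -0.91. A median of -6.44 puts ribosomal genes near the floor in tumor neutrophils labelled WT, where they took a median of 6.89% of a cell's UMIs. The subtraction may thus remove too much, and its values are not read as levels. Not one ribosomal, chaperone or cell cycle gene, and 1 of the 44 oxidative phosphorylation genes, was above the other barcodes. Mki67, a proliferation marker, had a UMI in 14.6% of tumor neutrophils labelled WT and 9.27% of those labelled KO, against 2.02% and 1.09% in spleen. Thinned to 1000 UMIs the shares were 12.6% and 5.52% in tumor neutrophils, and 10.4% and 9.54% in the keratin- or collagen-bearing tumor cells described below. Whether RNA of other cells has a part in these values was not tested.

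**Figure D4:**
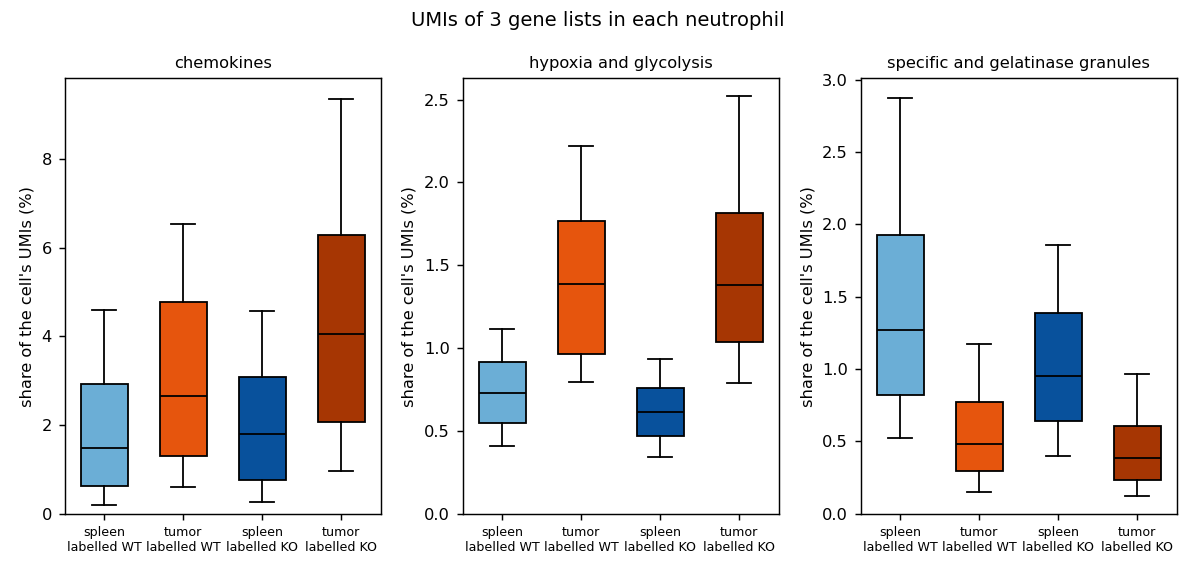
Share of each neutrophil's UMIs (y, %) that fell on the chemokine, hypoxia and glycolysis, and specific and gelatinase granule lists, by library; boxes span the 25th to the 75th percentile of cells with the median as a line, and whiskers run from the 10th to the 90th percentile. Tumor boxes are higher for the first 2 lists and lower for granules, and the whiskers overlap in all 3. The sums are not limited to genes above the other barcodes.

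The shares of single cells differed in their medians and overlapped between tissues. The hypoxia and glycolysis list took a median of 0.729% of a cell's UMIs in spleen and 1.39% in tumor labelled WT, and 0.613% and 1.38% labelled KO. Its 90th percentile in spleen, 1.12% and 0.937%, lay below the tumor medians. Of its 37 genes within limits 21 were above the other barcodes. The sum also holds genes that were not, such as Ldha and Pgk1, and the part of other cells' RNA in it was not tested. Chemokines took 1.49% and 2.66%, and 1.79% and 4.06%; Cxcl2 is the largest part of this sum. Specific and gelatinase granule genes took 1.27% and 0.483%, and 0.950% and 0.388%. Fibroblast and carcinoma markers had no UMI in 28.7% and 42.6% of tumor neutrophils.

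Shares of cells with a UMI were compared after each cell was thinned to 1000 UMIs, which left 2052 and 262 cells in spleen and tumor labelled WT and 982 and 344 labelled KO. As a rough measure of free RNA the same was done in cells that should lack neutrophil genes, with no Csf3r UMI. The tumor reference cells were far deeper than tumor neutrophils, so thinning may dilute free RNA more in them. Their thinned shares may understate it. These were spleen cells with at least 2 Cd79a UMIs (median depth 2965 and 3624.5 UMIs) and tumor cells with at least 5 keratin or collagen UMIs and no Ptprc (15319 and 21274 UMIs). Cxcl3 had a UMI in 6.48% (exact binomial 95% interval 5.45 to 7.63) of spleen and 44.3% (38.2 to 50.5) of tumor neutrophils labelled WT, and in 6.21% (4.78 to 7.91) and 55.2% (49.8 to 60.6) labelled KO. The reference cells of the tumor had 2.04% and 2.35%, or 10.4% and 15.1% unthinned. Il1a had a UMI in a smaller share of tumor cells, 0.390% and 17.9%, and 0.407% and 25.3%, with at most 0.588% in reference cells. Unthinned, the tumor reference cells had 3.24% and 2.71%. Cd274 had a UMI in 4.19% and 27.5%, and in 13% and 45.9% of neutrophils. In spleen labelled WT its share was below that of the reference cells (5.80%). Cxcl3, at a higher CPM in the same neutrophils, had no UMI in those thinned reference cells. Whether reference cells make Cd274, or Hilpda below, themselves was not tested. Their shares of these genes thus need not be free RNA and cannot tell background from expression in neutrophils. For Cd274, tumor reference cells had 0.818% and 1.89%. Hilpda was in 4.58% and 47.3%, and in 5.70% and 43.9%, near the reference cells in spleen (5.95% and 5.26%) and above them in tumor (7.53% and 10.8%, or 45.7% and 58.3% unthinned at their greater depth). Unthinned, Cxcl3 was in 10.6%, 48.4%, 9.24% and 60.4%, Il1a in 1.22%, 20.9%, 1.09% and 31.3%, Cd274 in 9.02%, 34.7%, 24.4% and 58.6%, and Hilpda in 10.9%, 56.4%, 10.3% and 49.9%. Cxcr2 was detected in most spleen and few tumor neutrophils, 69.6% and 20.6%, and 72.4% and 23.8% (unthinned 89.6%, 31.8%, 91.5% and 35.6%), with at most 0.430% in reference cells. Trem1 was in 56.6% and 64.1%, and in 58.4% and 71.2% (unthinned 77.4%, 71.3%, 80.0% and 75.4%), so the lower share of Cxcr2 was not shared by every neutrophil receptor.

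**Figure D5:**
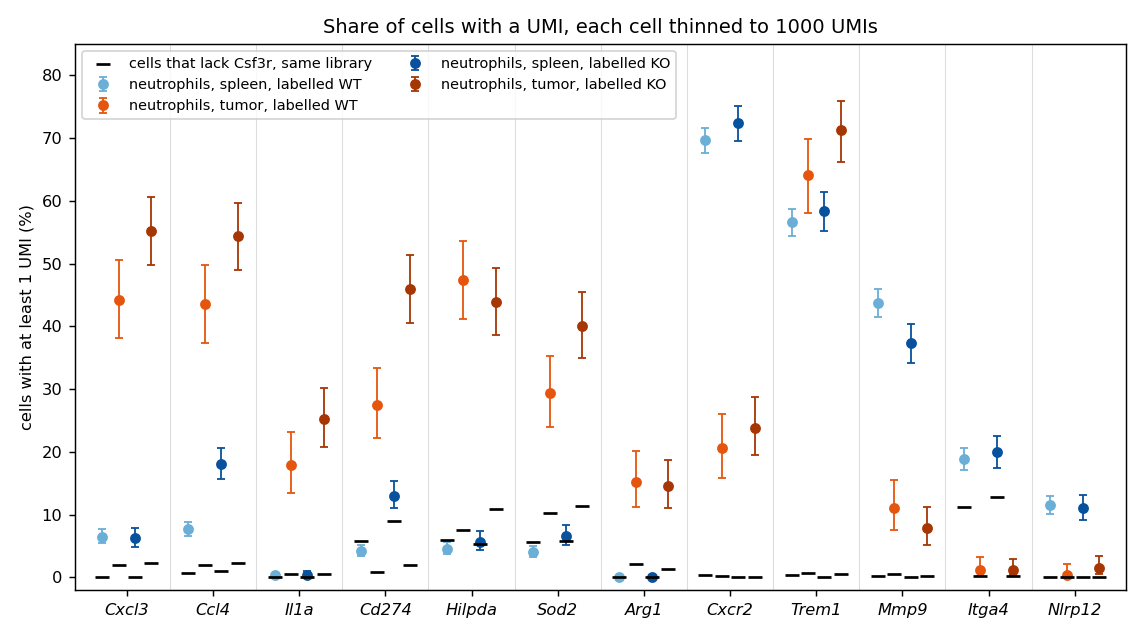
Share of neutrophils with at least 1 UMI (y, %) for 12 genes in the 4 libraries, each cell thinned to 1000 UMIs, with exact binomial 95% intervals that cover counting error only; black bars mark cells of the same library without Csf3r. Cxcl3 is seen in 44.3% and 55.2% of tumor neutrophils, and Cxcr2 in 20.6% and 23.8% there.

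Some genes higher in tumor, and Retnlg, which was lower there, were also compared cell by cell. After thinning, Cxcl3 was in 44.4% of tumor neutrophils with Hilpda and 44.2% of those without it in the pair labelled WT, and in 58.3% and 52.8% in the pair labelled KO. Tumor neutrophils with Cd274 held Retnlg less often than those without it, 40.3% against 58.4%, and 20.3% against 29.6%. Spleen neutrophils had the same order, 59.3% against 71.0%, and 39.8% against 47.5%. These are shares of cells within single libraries and carry no test.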

How the data were processed

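Single-cell RNA-seq libraries of spleen and tumor were analysed, 4 of the 6 in the series. The deposited values are UMI counts per gene and cell barcode, made by the authors with Cell Ranger, version 6.0.0 and the mm10 build per the submitters' processing notes and version 6.1.0 per the file headers. Kits for either transcript end, 5' and 3', are listed in the labels, and which end was read is not settled. The members and gene lists were chosen with earlier results of these data known. From the counts, UMIs were summed over the members of a library and scaled to CPM, with a pseudocount of 1 CPM for log2 ratios and exact conditional binomial intervals for folds (Python 3.11.15, numpy 2.4.6, scipy 1.17.1, pandas 2.3.3). A call is a ratio of at least 2-fold. Genes used by the gate were left out of the calls. With 1 library per tissue and genotype no test was run, and the calculation was tested on simulated data. A floor of 3 counts in the library at 0 gives each fold written as "at least". Genes named are the 15 highest and 15 lowest ratios among genes called in both pairs, up to 6 of each list by size of ratio, textbook members of the lists by value, Cysltr1 and the gate genes. The 19 alternatives varied pseudocount, filters, scaling, thinning and the gate; 3 of them, which subtracted free RNA or left out members over 4000 UMIs or with a macrophage UMI, were chosen after seeing the data.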

Additional observations from a re-analysis of the deposited data

How the results depend on the processing

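The main counts were 1346 higher and 847 lower genes in the pair labelled WT and 1036 and 748 in both pairs. With no filter beyond 1 UMI they were 5035, 1965, 3761 and 1424, and with at least 200 UMIs and 100 CPM 314, 301, 270 and 274. The count of higher genes (pair labelled WT, then both pairs) was 552 and 426 with thinned cells, 280 and 212 above the other barcodes, 755 and 545 with S100a8 and S100a9 of at least 5%, 332 and 242 without members that held another cell type's marker, and 733 and 505 with free RNA subtracted. Without members that held a macrophage UMI, 638 were higher in both pairs. With each cell weighted equally 993 were higher and 789 lower in both pairs. Leaving out members over 4000 UMIs gave 707 and 805. Without the Csf3r condition, 1120 were higher and 769 lower in both pairs. Log2 ratios that changed sign were those of H2-Eb1 in the pair labelled KO (0.041 with S100a8 and S100a9 of at least 5%, 2.59 without members holding another type's marker, 1.04 without the 5% of members with most UMIs, 0.41 without members over 4000 UMIs) and in the pair labelled WT (0.50 without members holding another type's marker). H2-Aa in the pair labelled KO changed to 1.55, 0.72 and 0.10 under the last 3 of the former settings. With free RNA subtracted, Cald1 was at -0.24 and Sparc at -0.45, heat shock chaperones had a median of -0.91 (all in the pair labelled WT), and ribosomal proteins had -6.44 and -1.32. This subtraction may remove too much. The median of leukotriene genes in the pair labelled WT was 0.62 with no filter. Fewer or more genes tested changes the counts of the filters by construction; for the others the cause was not tested. Of 101 named genes at least 2-fold apart in both pairs, 76 stayed so under all 19 alternatives and 90 kept their sign. A fit of tissue with the pair as a block over the 4 libraries, which leaves 1 residual degree of freedom, was not run. Leaving out a library ends its pair. Tumor depth limits the lower genes most, since 1 UMI is worth 1.44 and 1.27 CPM there.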
